A study of Mus musculus with 67 samples.

Results

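Single mouse blastomeres taken after aphidicolin treatment numbered 47. Of these, 15 carried the least of the regional DNA copy profile seen in DMSO control cells and 15 carried the most. These flat and patterned cells were selected on a measured value. For each cell, differences between bins 5 rows apart on the same autosome were limited to the range from -2 to 2 and regressed on the same differences of the median profile of the 20 DMSO cells. A slope of 1 means that the part of the regional differences that follows the DMSO median is as large as there. A slope of 0 means that no part follows it, and differences of another form do not enter the slope. The 15 cells of lowest slope were called flat and the 15 of highest slope patterned, leaving 17 treated cells between them. The 2 classes therefore hold 30 of the 67 cells of the series.

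All cells were single blastomeres of 8-cell BDF1 embryos, a hybrid mouse strain, cultured in vitro in CZB medium. The treated embryos received aphidicolin at 75 ng/ml while at the 4-cell stage, and the control embryos received DMSO, the solvent. Genomic DNA of each blastomere was amplified over the whole genome with a SeqPlex kit and sequenced for scRepli-seq. The 47 treated cells came from 6 embryos, with 8 cells each except 7 from the embryo labelled 6, and the 20 control cells came from 3 embryos of 4, 8 and 8 cells. All cells had the same label for the collection window (G1 to early S). All 67 carried the depositors' pass mark for a score named MAD, and none was marked as removed by hand. Cells of 1 embryo share their source, so the tests of the classes were made over embryos, and DMSO cells are given for reference with no test. The labels do not say which blastomeres are sisters.

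scRepli-seq counts sequenced DNA along the genome of one cell: regions that have replicated are present in more copies than regions that have not. Early and late replicating domains give a profile of plateaus and valleys while a cell is in S phase, and a cell with wholly unreplicated or wholly replicated DNA gives a level profile. Aphidicolin inhibits the replicative DNA polymerases and slows or stalls forks, and at low dose it is widely used to cause replication stress. Chromosomes that enter mitosis with unreplicated or broken DNA can be shared unequally between the daughter cells, which then carry opposite gains and losses. Both kinds of signal, regional and chromosomal, are read from the same values here.

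The slopes of the flat cells ran from -0.04 to 0.56, with a median of 0.25, and those of the patterned cells from 0.84 to 1.00, with a median of 0.88. The DMSO differences accounted for 0.917 to 43.1% of the variance of the differences in flat cells (median 12.9%). In patterned cells the share was 27.2 to 69.6% (median 57.4%). The 5 flattest cells were cell 73 at -0.04, cell 29 at 0.13, cell 69 at 0.15, cell 68 at 0.15 and cell 27 at 0.15. The 5 most patterned were cell 59 at 1.00, cell 46 at 0.99, cell 51 at 0.97, cell 58 at 0.95 and cell 54 at 0.91. These values chose the classes and are given as a description, with no test. The limit of the flat class lay in a sparse stretch of slopes. Cells 33, 60 and 66 were just inside, at 0.44, 0.49 and 0.56, and cells 43, 72 and 31 just outside, at 0.59, 0.65 and 0.69. The limit of the patterned class fell in a dense stretch. Cells 55, 44 and 45 were just inside, at 0.8415, 0.8464 and 0.8547, and cells 56, 62 and 71 just outside, at 0.8413, 0.8396 and 0.8379. Membership of the patterned class is accordingly less sharp than that of the flat class.

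The DMSO cells, from whose median the reference was made, had slopes from 0.52 to 1.11 with a median of 1.02. Of these, 18 lay above the flat range, while cell 23 at 0.52 and cell 24 at 0.55, both from the embryo DMSO 3, lay within it (2 of 20 cells, 10.0%, exact binomial 95% interval 1.24 to 31.7%, counting error only). Low slopes were thus also present without aphidicolin, but no DMSO cell was as flat as the 14 flattest treated cells.

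**Figure D1:**
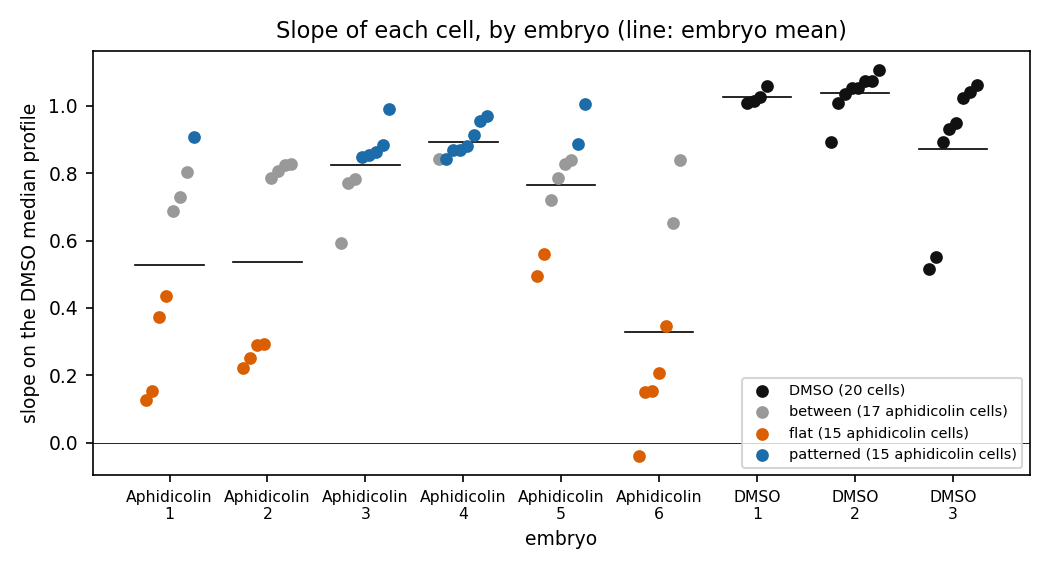
Each point is the slope of 1 cell on the DMSO median profile (vertical axis, no unit), placed by embryo and coloured by class, and the horizontal lines are embryo means. Flat cells were found in the embryos Aphidicolin 1, 2, 5 and 6 and none in Aphidicolin 3 and 4, where the lowest slopes were 0.59 and 0.84, and 2 cells of DMSO 3 lay at 0.52 and 0.55.

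The classes were unevenly spread over the embryos. Flat cells numbered 4 of 8 in Aphidicolin 1, 4 of 8 in Aphidicolin 2, 2 of 8 in Aphidicolin 5 and 5 of 7 in Aphidicolin 6. Patterned cells numbered 1 in Aphidicolin 1, 5 in Aphidicolin 3, 7 in Aphidicolin 4 and 2 in Aphidicolin 5. Only Aphidicolin 1 and Aphidicolin 5 held both classes. The embryo means of the slope were 0.53, 0.54, 0.82, 0.89, 0.76 and 0.33 for embryos 1 to 6 in order, and differences between embryos made up 45.4% of the variance of the slope over the 47 cells. Because most members of each class share an embryo, a difference between class medians cannot be told apart from a difference between embryos except within an embryo.

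Within an embryo the slopes could still differ widely. In Aphidicolin 2, 4 cells lay between 0.22 and 0.29 and the other 4 between 0.79 and 0.83, with no cell between. In Aphidicolin 1, 4 cells lay between 0.13 and 0.44 and 4 between 0.69 and 0.91. In Aphidicolin 6, 5 cells lay between -0.04 and 0.34, and the other 2 were at 0.65 and 0.84. Aphidicolin 4 was the opposite case, since all 8 cells lay between 0.84 and 0.97.

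Single autosomes of a cell differed in slope. In cell 69 they ran from 0.04 to 1.15 (median autosome 0.09), in cell 27 from 0.01 to 0.52 (median 0.11), in cell 50 from 0.19 to 1.20 (median 0.92) and in cell 44 from 0.35 to 1.02 (median 0.84). Cells 69, 50 and 44 hold segments near 0 copies, where hardly any reads remain, so their extremes may be values near the floor. Outside such segments, cell 69 had slopes of 0.11 over regions at 2 copies, 0.11 over gains and 0.08 over losses. When the slope was computed from odd-numbered and from even-numbered autosomes separately, all 15 flat cells were among the 15 lowest treated cells on both sets. Of the 15 patterned cells, 14 were among the 15 highest on odd autosomes and 11 on even autosomes. The 2 sets had a Pearson r of 0.98 over the 47 treated cells, each of which gives both values from 1 library. The slope was computed in 11 other ways, the odd and the even set among them. In these, 14 or 15 of the 15 flat cells and 11 to 14 of the 15 patterned cells stayed in their class, and no patterned cell became flat. All of these slopes reuse the values that chose the classes, in part or whole. The ranks and counts are thus not separate from the choice of cells and are given as a description.

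In level, the flat cells differed from the DMSO profile at both its ends. The autosomal windows of 1 Mb were ranked by the DMSO median and split into 10 groups of 239 or 240 windows. In each cell only windows without a call were used, and levels were set relative to the mean of its middle groups 5 and 6. In cells 46 and 68, for example, 61.6% of the autosomal windows were inside a call and so left out. In the lowest group the median flat cell stood at -0.10 on this log2 scale, against -0.56 in the median patterned cell and -0.64 in the median DMSO cell. In the highest group the values were 0.20, 0.53 and 0.47. The difference between the highest and the lowest group was 0.35 (log2) in the median flat cell, a ratio of 1.27, with a range from -0.10 to 0.69. It was 1.01 in the median patterned cell, a ratio of 2.02, with a range from 0.90 to 1.12, and 1.09 in the median DMSO cell, a ratio of 2.13. These levels come from the values that chose the classes and carry no test.

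**Figure D2:**
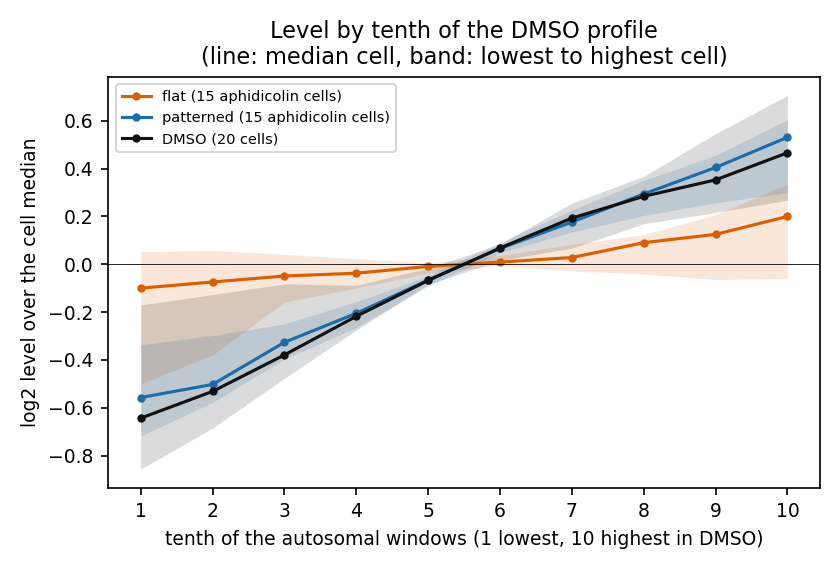
The horizontal axis orders the autosomal windows into 10 groups of rising DMSO median. The vertical axis is the log2 level of windows without a call, relative to the mean of groups 5 and 6 of the cell, although its label names the cell median. Lines join the median cell and bands span the lowest to the highest cell: the flat median rose from -0.10 to 0.20, the patterned median from -0.56 to 0.53 and the DMSO median from -0.64 to 0.47.

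The 3 highest windows showed the same flattening, with wide ranges. Levels of single windows were taken over all cells of a class, whatever their copy state. The highest window of the DMSO median profile, on chromosome 4 at 117000001 to 118000000 (mm9), had a log2 level of 0.36 in the median flat cell (range -0.69 to 0.64) and 0.70 in the median patterned cell (range 0.12 to 1.19), against 0.68 in DMSO. The next window, on chromosome 11 at 100000001 to 101000000, stood at 0.28 in the median flat cell and 0.55 in the median patterned cell. The third, on chromosome 15 at 83000001 to 84000000, stood at 0.11 and 0.59. The 3 lowest windows were neighbours on chromosome 7, from 21000001 to 24000000. There the medians were -0.69, -0.97 and -0.64 in flat cells and -1.37, -1.79 and -1.04 in patterned cells, while the DMSO medians were -4.16, -5.25 and -5.01. Patterned cells thus also stood far above the DMSO medians there, and DMSO cells ranged from -10.73 to 0.14 in the lowest window. These 3 windows were therefore not read as flattening. Single cells of all classes fell below -5 in this stretch, whose gene content was not analysed here.

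Reads and noise were next compared. Flat cells had 1421653 to 2400443 reads (median 1819751) and patterned cells 1362497 to 2394842 reads (median 2086080). The ranges overlapped almost wholly. The median relative counting error of a window was 0.0535 (log2) in flat and 0.0509 in patterned cells, far below the regional differences above. After the common profile was removed, noise between neighbouring windows was 0.070 to 0.124 (median 0.107) in flat cells and 0.113 to 0.160 (median 0.125) in patterned cells. Relative to counting error it was 1.86 in the median flat cell and 2.46 in the median patterned cell. By noise after removal of the profile, the median flat cell was less noisy than the median patterned cell. It had 87.2% of its reads. The depositors also gave a score per cell, named MAD score, with no formula stated in their labels. It is termed the deposited noise score here, although the labels do not say that it measures noise. It was 0.229 to 0.909 (median 0.458) in flat and 0.639 to 0.990 (median 0.728) in patterned cells. Noise was taken from short-range differences of the values that chose the classes, so it is not a separate measure of quality. Over the 47 treated cells, the Pearson r with slope was 0.69 for noise after removal of the profile and 0.74 for the deposited score. The lowest deposited score of a flat cell, 0.229, belonged to cell 73, the flattest of all, and the highest, 0.909, to cell 69, which carried calls on 15 autosomes. The noise of cell 69 after removal of the profile was 0.0815, below the flat median.

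Copy number changes of long segments were called from what remained after the common profile was removed. A segment of at least 10 Mb was called a gain above 0.32 and a loss below -0.42 on the log2 scale, with the autosomal median of the cell taken as 2 copies. An autosome with any call is termed aberrant. Both classes carried many such changes. Flat cells had 0 to 15 aberrant autosomes of 19 (median 7, mean 6.67) and patterned cells 3 to 18 (median 7, mean 9.13), while DMSO cells had 0 to 2 (median 0.5). The 2 classes overlapped over most of their range.

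The share of autosomal windows inside a call was 0 to 61.6% (median 19.7%) in flat cells and 6.51 to 61.6% (median 26.3%) in patterned cells, against a median of 0.209% in DMSO cells. Calls were found in 13 of 15 flat cells (86.7%, exact binomial 95% interval 59.5 to 98.3%) and 15 of 15 patterned cells (interval 78.2 to 100%), and in 10 of 20 DMSO cells, 7 of which had a short loss on chromosome 12 in 1 embryo. The gain or loss of a whole autosome was found in 11 of 15 cells of either class and in 0 of 20 DMSO cells. Cells with at most 1 aberrant autosome numbered 3 of 15 in the flat class and 0 of 15 in the patterned class. Of the 17 treated cells between the classes, 17 had a call, 15 a whole autosome and 2 at most 1 aberrant autosome. These counts are thus not particular to either class. The intervals of these shares overlap and treat cells of 1 embryo as independent, which they are not.

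The flat class ranged widely. Cells 27 and 29, both of Aphidicolin 1, had no call on any autosome and slopes of 0.15 and 0.13. Cell 73 of Aphidicolin 6 had 1 aberrant autosome, the loss of the whole of chromosome 19 at 0.99 copies, and a slope of -0.04. Cells 68 and 69, also of Aphidicolin 6, had 15 aberrant autosomes each at slopes of 0.15. A flat profile was therefore seen with no aberrant autosome and with 15 of 19 aberrant.

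In the patterned class, cell 52 of Aphidicolin 4 had the fewest aberrant autosomes, 3, all gains, on chromosomes 10, 12 and 16. Cell 50 of Aphidicolin 3 had the most, 18. The 3 patterned cells with 17 or 18 aberrant autosomes (46, 47 and 50) all came from Aphidicolin 3. That embryo also held the patterned cells 44 and 45, with 7 and 8.

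The called segments had levels near whole copy numbers in both classes. The 52 gains of flat cells had a median of 2.97 copies and the 80 gains of patterned cells 3.003 copies. There were 65 losses in flat cells and 100 in patterned cells, of which 3 and 15 lay below -3 (log2), near 0 copies. Without these, the losses had a median of 1.03 copies in both classes. Segmental calls had median lengths of 44 Mb for gains and 40.5 Mb for losses in flat cells, and 39.5 and 42 Mb in patterned cells. Apart from the losses near 0 copies, described below, size and step of the calls thus differed little between the classes. These figures carry no test because segments of 1 cell are not independent.

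The longest flat gains were most of chromosome 1 in cell 69 (17000001 to 187000000 in mm9, 3.16 copies), the whole of chromosome 3 in cell 60 (3.95 copies) and the whole of chromosome 3 in cell 70 (2.97 copies). The longest flat losses were the whole of chromosome 1 in cell 60 (1.01 copies), most of chromosome 1 in cell 68 (0.97 copies) and the whole of chromosome 3 in cell 67 (1.04 copies). Among patterned cells the longest gains were the whole of chromosome 1 in cell 59 (2.96 copies), most of chromosome 2 in cell 53 (2.95 copies) and, at equal length, the whole of chromosome 4 in cell 54 (2.84 copies) and in cell 63 (2.95 copies). Their longest losses were most of chromosome 2 in cell 55 (1.01 copies), the whole of chromosome 4 in cell 58 (1.04 copies) and the whole of chromosome 6 in cell 47 (1.03 copies). Several of these are opposite changes of the same chromosome in cells of the same embryo, a point taken up below.

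Segments near 0 copies, with a level below -3 (log2), numbered 3 in flat cells and 15 in patterned cells. The flat ones lay in 2 cells. They were on chromosome 13 from 30000001 to 120000000 in cell 30, and on chromosome 2 from 120000001 to 181000000 and the whole of chromosome 12 in cell 69. The patterned ones lay in 6 cells. Cell 50 had 5, on chromosomes 3, 6, 7, 13 and 16. Cell 47 had 4, on chromosomes 3, 12, 13 and 16, and cell 46 had 3, on chromosomes 8, 9 and 17. Cells 44, 51 and 59 had 1 each, on chromosomes 13, 12 and 3. Of the 15, 13 lay in 4 cells of Aphidicolin 3, so the higher count rests on 1 embryo. The other 2 lay in 2 cells, against 3 segments in 2 cells for the flat class. Among the 17 treated cells between the classes, 7 held such segments.

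The slope was also computed over regions of each copy number. In the median flat cell the slope was 0.24 over regions at 2 copies, 0.28 over gains and 0.30 over losses. In the median patterned cell it was 0.90, 0.88 and 0.94. Cell by cell, the slope over gains was above that of the 2-copy regions of the same cell in 4 of 11 flat cells and 7 of 14 patterned cells, and the slope over losses in 7 of 12 and 6 of 13. The direction was thus mixed in both classes. Single cells could differ between regions: cell 68 had 0.14 at 2 copies, 0.08 over gains and 0.30 over losses, and cell 54 had 0.90, 0.93 and 1.20. The medians above are over different numbers of cells, since not every cell had enough bins in each state.

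The tests of the 2 classes within embryos could use only Aphidicolin 1 and Aphidicolin 5. With 2 embryos, the exact two-sided sign-flip permutation test over embryos cannot give a p below 0.5, so the values are given without a call. Aberrant autosomes averaged 4.0 in the 4 flat cells of Aphidicolin 1 against 7.0 in its 1 patterned cell, and 10.5 in the 2 flat cells of Aphidicolin 5 against 10.0 in its 2 patterned cells. The mean difference, flat minus patterned, was -1.25 ± 2.47 aberrant autosomes (SD, n = 2 embryos; exact permutation p = 1.0), and the embryos went in opposite directions. The size moved with the choice of cells and of reference. It was -7.0 with 10 cells a class (1 embryo holding both classes, so no test), -3.81 with 20 cells a class (5 embryos, exact permutation p = 0.1875), -4.78 with bins 10 rows apart (3 embryos, p = 0.75 by exact permutation) and -3.62 with a reference from DMSO 3 alone (4 embryos, exact permutation p = 0.125). For the share of windows called it was -1.44 ± 6.64 percentage points (exact permutation p = 1.0), again in opposite directions. Noise after removal of the profile (-0.014 ± 0.018), the deposited noise score (-0.192 ± 0.172), reads (-530447 ± 153270) and the slope on the X chromosome (-0.55 ± 0.05) were lower in the flat cells of both embryos, each with an exact permutation p of 0.5, the smallest possible, and 0.75 after Benjamini-Hochberg adjustment over the 6 measures. Noise shares short-range differences with the slope, so its comparison is not separate from the choice of cells. The deposited score rose with slope over the treated cells, and with no formula stated it cannot be taken as separate either.

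A split made within every embryo uses all 6. In each, the 4 cells of lowest slope were set against the others. This is not a comparison of flat with patterned cells: Aphidicolin 3 and 4 hold no flat cell, and their 4 lowest cells include the patterned cells 44 in Aphidicolin 3 and 52, 55 and 57 in Aphidicolin 4. Aberrant autosomes averaged 4.0 against 9.5 in Aphidicolin 1, 4.5 against 8.5 in Aphidicolin 2, 6.5 against 15 in Aphidicolin 3, 4.5 against 7.25 in Aphidicolin 4, 7.75 against 8.0 in Aphidicolin 5 and 9.5 against 10.7 in Aphidicolin 6. The cells of lower slope had fewer in 6 of 6 embryos. The mean difference was -3.69 ± 3.02 (SD, n = 6 embryos). Its exact two-sided permutation p was 0.03125, the smallest that 6 embryos can give, and 0.09375 after Benjamini-Hochberg adjustment over the 6 measures, so it did not pass 0.05.

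Slope and calls were then read from different autosomes, which lowers the number of autosomes that can be aberrant. With the slope taken from odd autosomes and calls counted on even ones, the mean difference was -1.62 aberrant autosomes (exact permutation p = 0.03125, adjusted p = 0.0625) and -11.3 percentage points of the windows. With slope from even and calls on odd autosomes it was -1.40 (exact permutation p = 0.25, adjusted p = 0.3) and -9.84 percentage points. The share over all autosomes differed by -12.03 percentage points. With the slope taken only from autosomes without a call in that cell, the difference was -3.86 aberrant autosomes (exact permutation p = 0.03125, adjusted p = 0.09375). Without Aphidicolin 3, the embryo with the widest difference, it was -2.73 aberrant autosomes (exact permutation p = 0.0625, the smallest for 5 embryos).

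**Figure D3:**
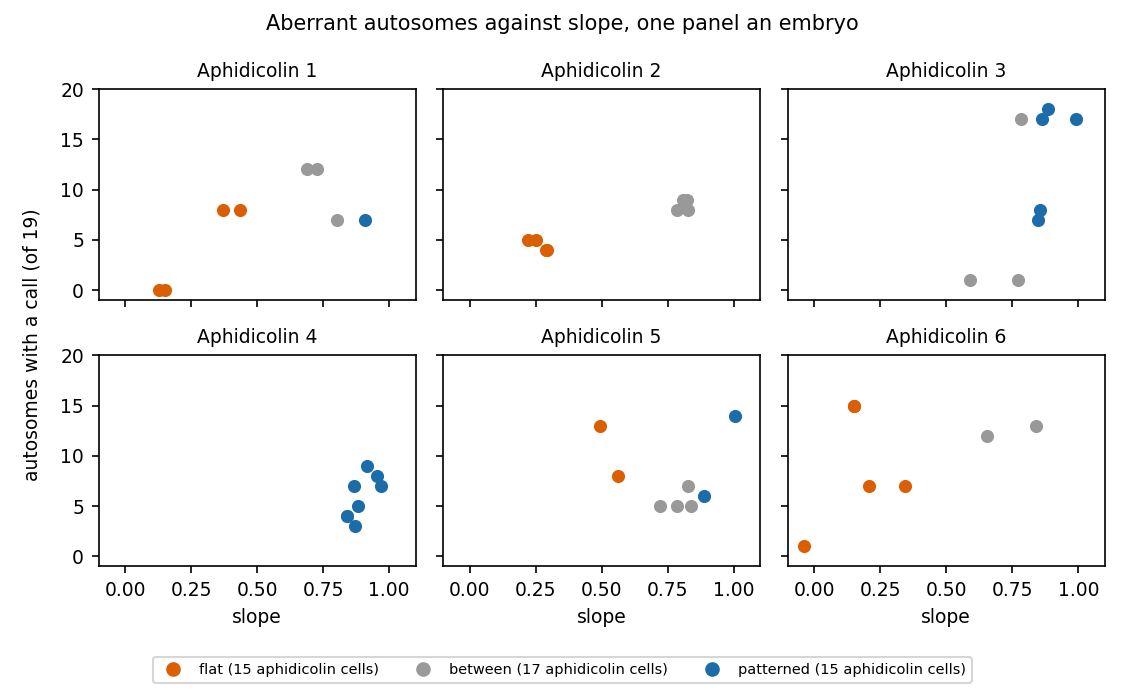
Each panel plots the number of aberrant autosomes (of 19) of the cells of 1 treated embryo against their slope, coloured by class, and cells with equal values overlap. In Aphidicolin 2 the 4 flat cells had 4 or 5 and the other 4 cells 8 or 9, whereas in Aphidicolin 5 the flat cells at 0.49 and 0.56 had 13 and 8.

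The other measures of this split gave the following. The share of autosomal windows called differed by -12.03 ± 12.5 percentage points, cells of lower slope minus the others (lower in 5 of 6 embryos, exact permutation p = 0.09375, adjusted p = 0.1125). Noise after removal of the profile was lower in 5 of 6, with a difference of -0.023 ± 0.024 (exact permutation p = 0.0625, adjusted p = 0.09375). The deposited noise score was lower in 6 of 6, with a difference of -0.178 ± 0.134 (exact permutation p = 0.03125, adjusted p = 0.09375). Reads were lower in 3 of 6 and higher in 3 (mean difference -58869 ± 388599 reads, exact permutation p = 0.75). None of the 6 measures passed 0.05 after adjustment. As in the class comparison, the noise measure is not separate from the slope that made the split. The deposited score cannot be taken as separate either, since its formula was not stated. Its Pearson r with slope was 0.74 over the 47 treated cells. Among DMSO cells, cell 23, of lowest slope (0.52), had the lowest score, 0.394. Cell 15, of highest slope (1.11), had the highest, 0.762.

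Between embryos no relation was detected. The 6 embryo means of slope and of aberrant autosomes had a Pearson r of -0.17 (exact permutation p = 0.715) and a Spearman rho of -0.26 (exact permutation p = 0.658). Without Aphidicolin 4 and Aphidicolin 6, the embryos farthest from the median slope, r was 0.88 over 4 embryos (exact permutation p = 0.0833), so the value rests on those 2. Aphidicolin 6, the flattest at a mean slope of 0.33, averaged 10.0 aberrant autosomes, and Aphidicolin 4, the most patterned at 0.89, averaged 5.88. Over single cells, as a description, r between slope and aberrant autosomes was 0.28 over all 47, 0.96 over the 8 cells of Aphidicolin 2 and -0.09 over the 8 of Aphidicolin 5.

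Many cells of an embryo came in pairs with opposite calls. Within each embryo, cells were correlated over the autosomal windows after removal of the common profile, and 2 cells that were each other's most negative partner are termed a mirror pair. There were 17 such pairs. In the median pair, 95.3% of the windows called in either cell were called with opposite sign in both, and the lowest share was 77.9%. Of the flat cells 10 were in a mirror pair, and of the patterned cells 13. Only mutual partners were counted, so opposite calls also occurred outside these pairs. The flat cells 36 and 39 of Aphidicolin 2, with slopes of 0.292 and 0.290, had opposite calls on chromosomes 1, 13 and 15 but were not a mutual pair.

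Cells 30 and 33 of Aphidicolin 1, both flat, show the form of a pair. Cell 30 gained on chromosomes 3, 6, 8, 11 and 16 and lost on chromosomes 1, 2 and 13, and cell 33 had the reverse on all 8. Opposite sign held for 99.8% of their called windows. Their slopes were 0.37 and 0.44.

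Relative to other pairs of the embryo, mirror cells had like slopes in Aphidicolin 1, 2 and 6, but not in every embryo. Of the 13 pairs with a flat or patterned member, 4 joined 2 flat cells (30 and 33, 40 and 42, 67 and 70, 68 and 69) and 5 joined 2 patterned cells (44 and 45, 46 and 47, 51 and 57, 53 and 55, 54 and 58). In 1 pair a flat and a patterned cell met, and in 3 a member of a class met a cell between the classes. Cells 51 and 57, 53 and 55, and 54 and 58 came from Aphidicolin 4, where 7 of 8 cells were patterned. Cells 67 and 70, and 68 and 69, came from Aphidicolin 6, where 5 of 7 were flat. The class counts were not set against this make-up of the embryos. The median difference of slope was 0.065 within the 17 mirror pairs and 0.185 over the 144 other pairs of cells of the same embryo. In Aphidicolin 1 the medians were 0.052 and 0.337, in Aphidicolin 2 0.037 and 0.516, and in Aphidicolin 6 0.137 and 0.414. In Aphidicolin 3, where slopes ran from 0.59 to 0.99, and in Aphidicolin 4, where they ran from 0.84 to 0.97, the medians were 0.102 and 0.106, and 0.040 and 0.047. Aphidicolin 5 went the other way, with 0.216 within and 0.171 outside pairs. Pairs share cells, so no test was made. The mirror cell was the nearest in slope within the embryo for 12 of the 34 paired cells.

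The clearest exception was cells 59 and 60 of Aphidicolin 5. Their calls were opposite over 94.5% of called windows, with 14 and 13 aberrant autosomes, yet their slopes were 1.00 and 0.49, the widest gap of any mirror pair at 0.51. Cell 59 held the whole of chromosome 1 at 2.96 copies and cell 60 at 1.01 copies. On chromosome 3 from 26000001 to 159000000, cell 59 stood at 0.01 copies, while cell 60 held the whole chromosome at 3.95 copies. The same embryo held the flat cell 66, at 0.56, whose mirror cell 61 was at 0.83. The next widest gaps were 0.185 for cells 71 and 72 of Aphidicolin 6 and 0.167 for cells 63 and 65 of Aphidicolin 5.

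**Figure D4:**
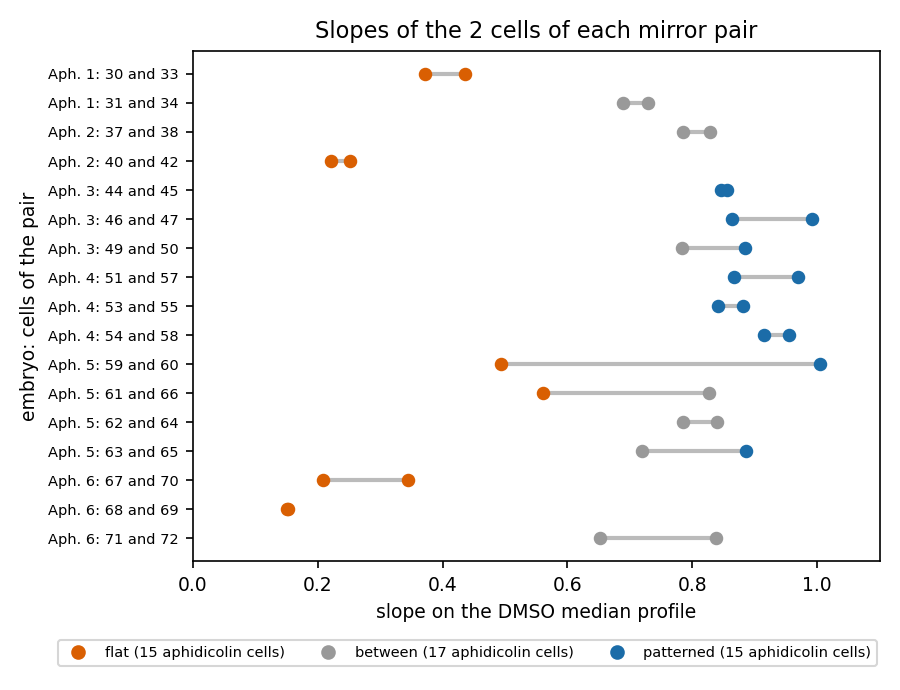
Each row is a mirror pair, 2 cells of 1 treated embryo with opposite calls, and the points give the slope of each cell coloured by class, joined by a line as long as the gap. Most lines are short, with cells 68 and 69 on one spot at 0.15, and the longest joins cells 59 and 60 at 1.00 and 0.49.

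The X chromosome was not used to choose the classes. The level of X relative to the autosomes was close to 1 copy in most treated cells, with a median of 0.98 copies in flat and 1.01 copies in patterned cells, while all 20 DMSO cells were between 1.53 and 1.81 copies. It was near 0 in 3 treated cells: cell 69 (flat), cell 46 (patterned) and cell 72 (between). Their mirror cells 68, 47 and 71 stood at 1.85, 2.09 and 2.19 copies. Since most treated cells and all DMSO cells differed in the copy number of X, it cannot be told apart from treatment here. The reference profile of X came from the DMSO cells alone. Slopes on X therefore set cells mostly near 1 copy against a reference from cells between 1.53 and 1.81 copies.

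In cells with X, the slope on X largely followed that of the autosomes. It was lower than the autosomal slope by a median of 0.01 in the 14 flat cells with X (range -0.12 to 0.35) and of 0.02 in the 14 patterned cells with X (range -0.11 to 0.49). The difference was above 0.2 in 2 flat and 5 patterned cells. Both of those flat cells, 60 and 66, were from Aphidicolin 5, where 7 of 8 cells exceeded 0.2 and the median difference was 0.37. Patterned cell 63 of that embryo had 0.89 on autosomes and 0.40 on X. Cell 59 did not follow, with 1.00 on autosomes and 1.09 on X. No DMSO cell exceeded 0.2. In the within-embryo split, the slope on X was lower in the cells of lower autosomal slope in 5 of 6 embryos, with a difference of -0.29 ± 0.27 (exact permutation p = 0.0625, adjusted p = 0.09375). With the 3 cells near 0 copies of X left out the difference was -0.35 (exact permutation p = 0.0625, adjusted p = 0.075).

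**Figure D5:**
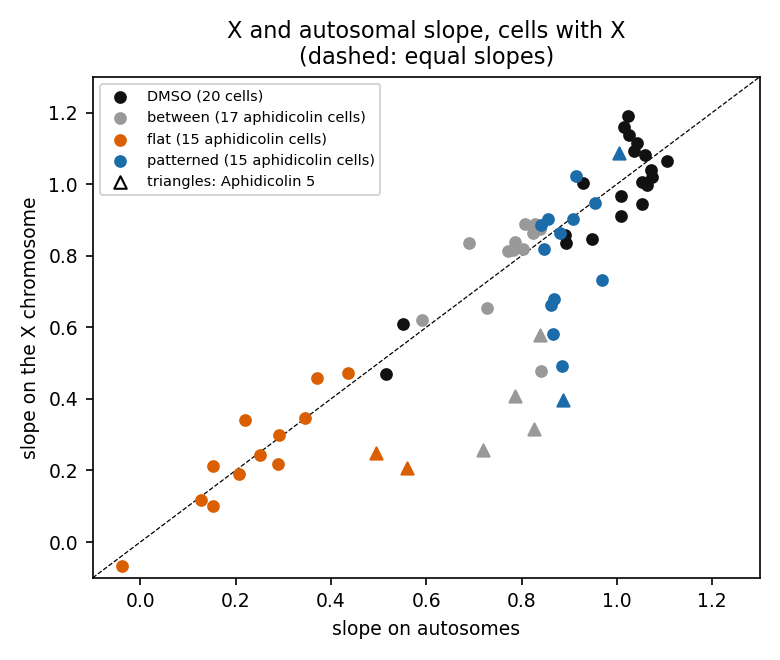
The slope on the X chromosome (vertical) is plotted against that on autosomes (horizontal) for cells with X, coloured by class, with triangles for Aphidicolin 5 and a dashed line where both are equal. Most flat cells lie near the line, and 7 of the 8 triangles lie more than 0.2 below it.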

How the data were processed

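The submitters' processing notes name the genome build mm9; no source used here gave the aligner or the counting. The authors deposited, for each cell, log2 values over the cell's median in 13103 bins at steps of 200 kb, and a MAD score per cell. Every value came out as a whole number of reads over a median (tolerance 0.01 reads), which gave 739450 to 2832431 reads per cell. Cells were selected by slope as stated in the report; the members, lists and tests were chosen with earlier results of these data known. Bins without a value were set to 0.5 reads for windows but left out of the slope. Windows of 1 Mb were medians of bins. The common profile, the mean of the 2 treatment medians made without the cell, was removed by Huber regression. Segments came from penalised least squares, with levels limited to -3 to 2 for that step only. Named cells were the 5 lowest and 5 highest slopes, 3 either side of each limit, and those with most and fewest aberrant autosomes; named segments were the 3 longest per class and sign and all below -3. Embryos were the replicates, compared by an exact sign-flip permutation test with Benjamini-Hochberg adjustment. Nothing in the labels says whether embryos came from separate females. Intervals cover counting error only, and reads of amplified DNA are not independent molecules. The scripts were tested on simulated data and ran in Python 3.11.15, numpy 2.4.6, pandas 2.3.3 and matplotlib 3.10.9.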

Additional observations from a re-analysis of the deposited data

Results flagged for a closer look

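Of 34 groups of embryos or cells checked for a value far from the rest, 2 stood out, close to the 1 in 20 that chance gives. In Aphidicolin 5, the slope on X of cell 59 was 1.087, while the other 7 cells lay between 0.206 and 0.580. In DMSO 2, cell 17 had a slope of 0.893, while the other 7 lay between 1.01 and 1.11.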

How the results depend on the processing

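Of 197 values under alternative settings, 188 kept their direction and their side of the threshold and 9 changed direction. Some of the 188 could not differ. Only Aphidicolin 1 and 5 hold both classes, so leaving out Aphidicolin 2, 3, 4 or 6 repeats every value of the class comparison. None of the 197 passed 0.05 after adjustment, so stability of side carries little weight where only 2 embryos enter. Flat minus patterned, the share of windows called turned to 5.76 percentage points with slope from odd and calls on even autosomes, to 0.172 with limits of 0.45 and -0.7, and to 0.082 with a reference without DMSO cells 23 and 24; the cause was not tested. The correlation of embryo means turned to 0.88 (exact permutation p = 0.0611) when the common profile was not removed; patterned cells then had a median of 16 aberrant autosomes, flat cells 7 and DMSO cells 14.5. Leaving out each embryo in turn, over the class comparison and the within-embryo split, gave -4.38 to 0.5 aberrant autosomes, -15.4 to 3.25 percentage points, -0.029 to -0.001 in noise, -0.59 to -0.23 in X slope, -0.313 to -0.070 in deposited score, -638826 to 69233 reads and r from -0.68 to 0.31. Without Aphidicolin 1 the class comparison rests on 1 embryo and turned to 0.5 and 3.25; without Aphidicolin 4 or 6, r was 0.16 or 0.31; without Aphidicolin 5 the within-embryo difference in reads turned to 69233. Settings combining the within-embryo split with another change, the floor for empty bins, the reduced reference, X-less cells left out and chromosome 12 left out were chosen after seeing the data. Depth of 739450 to 2832431 reads limits calls to long segments, and changes under 5 Mb were not analysed here. With a minimum of 5 Mb, the median number of aberrant autosomes was 9 in flat, 9 in patterned and 1.5 in DMSO cells.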

Other observations

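A short stretch of chromosome 12, 16 to 28 Mb (mm9), carried calls in cells of 3 embryos, a point chosen after its values were seen. Segments that lay within 13 to 29 Mb were called losses in 7 of 8 cells of DMSO 2 and in 5 of 8 cells of Aphidicolin 2, of which 4 were the flat cells of that embryo and 1 was a cell between the classes. They were called gains in 5 of the 8 cells of Aphidicolin 4, 4 of them patterned. In cell 51 of that embryo, which lost the whole chromosome, the segment stood at -0.56 (log2) between neighbours at -0.9985 and -1.06. The other 6 embryos had no such segment. In DMSO 2 the stretch stood at -0.54 (log2, median cell, range -0.69 to -0.32) after removal of the common profile, against 0.10 in DMSO 1 and 0.11 in DMSO 3. With chromosome 12 left out of the calls, the median number of aberrant autosomes was 6 in flat cells, 7 in patterned cells and 0 in DMSO cells.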
